A study of Mus musculus with 2 samples.

Results

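Complement genes were followed in the non-adipocyte cells of the epididymal fat of mice. The 9 genes are 6 components and regulators listed as stromal, that is, of connective tissue (C3, C4b, C2, Cfb, C1ra and Serping1), and 3 listed as myeloid (C1qa, C3ar1 and C5ar1). Stromal and myeloid are labels set beforehand and not results. All were chosen by gene symbol, and all 9 were present in a gene table of 27998 genes. The study measured single-cell transcriptomes with the 10x Chromium 3' chemistry (V3), in which each captured molecule carries a unique molecular identifier (UMI). The cells were the stromal vascular fraction, which is what digestion of fat with Type II collagenase leaves once adipocytes are removed. One library came from mice on a high-fat diet (HFD) for 12 weeks and 1 from mice on a normal chow diet (NCD). All mice were C57BL/6J males without a genetic change, aged 18 weeks. The number of animals behind each library is not given in the sources used here. With 1 library per diet there is no replicate, so no test between diets was possible, and every interval below is a 95% interval that covers counting error only.

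Complement is a cascade of plasma and tissue proteins that marks surfaces for removal and recruits leukocytes. The classical route starts with the C1 complex, in which the recognition protein C1q holds the proteases C1r and C1s. C1r activates C1s, which cuts C4 and C2 to form an enzyme that cleaves C3. The alternative route amplifies C3 cleavage through factor B (Cfb), and the fragments C3a and C5a signal through the receptors C3ar1 and C5ar1 on myeloid cells. Serping1 encodes C1 inhibitor, which blocks C1r and C1s.

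The HFD library held 6840 barcodes with 18623508 UMIs and the NCD library 7365 barcodes with 33825653 UMIs, at medians of 2020 and 4230 UMIs per barcode. The libraries shared 64 barcode sequences. After filters and removal of called doublets, cells were clustered without any complement gene and named from marker genes. This gave 2996 HFD and 2925 NCD adipose stem and progenitor cells (progenitors below), and 2258 HFD and 2098 NCD macrophages. Levels are UMIs of a gene per 1000000 UMIs summed over a class (CPM). The progenitors carried all 8 of their markers (Dcn at 11268 CPM in HFD and 19490 CPM in NCD), and the macrophages all 8 of theirs (Apoe at 12520 CPM in HFD and 13816 CPM in NCD). The classes were named from these markers, so their levels are no separate check of the names. Macrophages also held Dcn, at 1873 CPM in HFD and 236 CPM in NCD. Progenitors also held Apoe, at 3546 CPM in HFD and 780 CPM in NCD. No progenitor or macrophage cluster held 50 cells of both libraries, so diets are compared over classes whose larger clusters differ. Clusters with at least 50 cells of a library came from separate first-round clusters. For progenitors these were 1, 4 and 6 in HFD and 7, 19, 22 and 23 in NCD. For macrophages they were 2, 3, 5 and 9 in HFD and 14, 15 and 18 in NCD. Both classes also include smaller groups of cells, some of them in first-round clusters listed here for the other library.

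Transcripts of other cell types within a class, called free RNA below, differed between the libraries. RNA caught in droplets, doublets that were not called and mixed clusters were not told apart as sources of these transcripts. An HFD progenitor cluster of 915 cells, led by Mmp12 and Trem2 within its class, had macrophage markers at 56.3% of library level. An HFD macrophage cluster of 819 cells had progenitor markers at 76.2%. The part of free RNA in the differences between diets was not tested. The 8 progenitor markers stood in HFD macrophages at a median of 31.2% of their level in the whole library (range 27.2% to 36.4%), and in NCD macrophages at 3.10% (2.36% to 3.30%). The 8 macrophage markers stood in HFD progenitors at 24.5% of their library level (22.2% to 50.7%), and in NCD progenitors at 3.63% (2.62% to 23.2%). Many values are therefore also given as a percentage of the gene's own library level, or after the library profile was subtracted in the proportion these medians give. Negative results of the subtraction were set to 0.

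The promoters of 4 of the 9 members were in the RefSeq table used here (GRCm38.p6): C3 and C1ra of the stromal genes, and C3ar1 and C5ar1 of the myeloid genes. They are shown to set the stretch before the start of a stromal gene beside that of a myeloid gene. Each line gives the 250 bases before the start that RefSeq annotates, 5′ to 3′ on the gene's strand. Capitals mark matches, on either strand, to letters used by well-known families of transcription factors: TTNNGNAA for C/EBP, TTCNNNGAA for STAT, GGGA and CC with 4 bases of any kind between them for NF-kB, GAGGAAG for PU.1 and TGANTCA for AP-1.
C3, chr17:57228137-57228386, minus strand: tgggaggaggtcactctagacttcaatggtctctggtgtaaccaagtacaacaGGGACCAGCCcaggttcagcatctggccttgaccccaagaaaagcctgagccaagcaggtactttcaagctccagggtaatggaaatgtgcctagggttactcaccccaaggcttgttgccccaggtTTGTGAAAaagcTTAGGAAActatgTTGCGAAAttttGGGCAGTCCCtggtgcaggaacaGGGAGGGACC
C1ra, chr6:124512371-124512620, plus strand: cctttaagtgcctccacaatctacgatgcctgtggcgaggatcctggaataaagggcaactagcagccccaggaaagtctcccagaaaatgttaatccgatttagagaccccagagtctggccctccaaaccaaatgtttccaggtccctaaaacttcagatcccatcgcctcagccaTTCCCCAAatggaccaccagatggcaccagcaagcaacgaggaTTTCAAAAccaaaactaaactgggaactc
C3ar1, chr6:122856158-122856407, minus strand: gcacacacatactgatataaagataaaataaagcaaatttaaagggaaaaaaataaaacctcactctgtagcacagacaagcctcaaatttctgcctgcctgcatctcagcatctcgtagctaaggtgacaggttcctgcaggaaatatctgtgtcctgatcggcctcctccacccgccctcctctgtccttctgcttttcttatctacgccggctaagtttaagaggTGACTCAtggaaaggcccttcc
C5ar1, chr7:16259339-16259588, minus strand: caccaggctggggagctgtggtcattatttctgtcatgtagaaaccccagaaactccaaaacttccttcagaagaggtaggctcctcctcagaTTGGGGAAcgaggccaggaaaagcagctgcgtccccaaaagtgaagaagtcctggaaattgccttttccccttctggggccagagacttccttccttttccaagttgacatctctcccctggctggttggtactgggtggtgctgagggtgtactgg
The C3 promoter held 3 stretches with the C/EBP letters. The one nearest the start, TTGCGAAA at 45 to 38 bases before it, matched on both strands. It also held 3 stretches with the NF-kB letters, and no match overlapped one of another motif. C1ra held 2 C/EBP matches, C5ar1 held 1, and C3ar1 held none but had 1 AP-1 match, TGACTCA, which reads on both strands. None of the 4 held the STAT or PU.1 letters. Of 32851 promoters of the same length, 36.8% held the C/EBP letters, 17.6% the NF-kB letters, 10.6% the PU.1 letters, 7.02% the STAT letters and 6.75% the AP-1 letters. The matches describe letters and not sites of binding. GENCODE vM21, the source of the gene positions given below, places some starts elsewhere. By its starts, 216 of the 250 bases shown for C1ra and 202 of those for C5ar1 lie inside the gene, as do 4 of those for C3ar1 and 0 of those for C3. The matches of C1ra and C5ar1 all lie in those inner stretches.

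**Figure D1:**
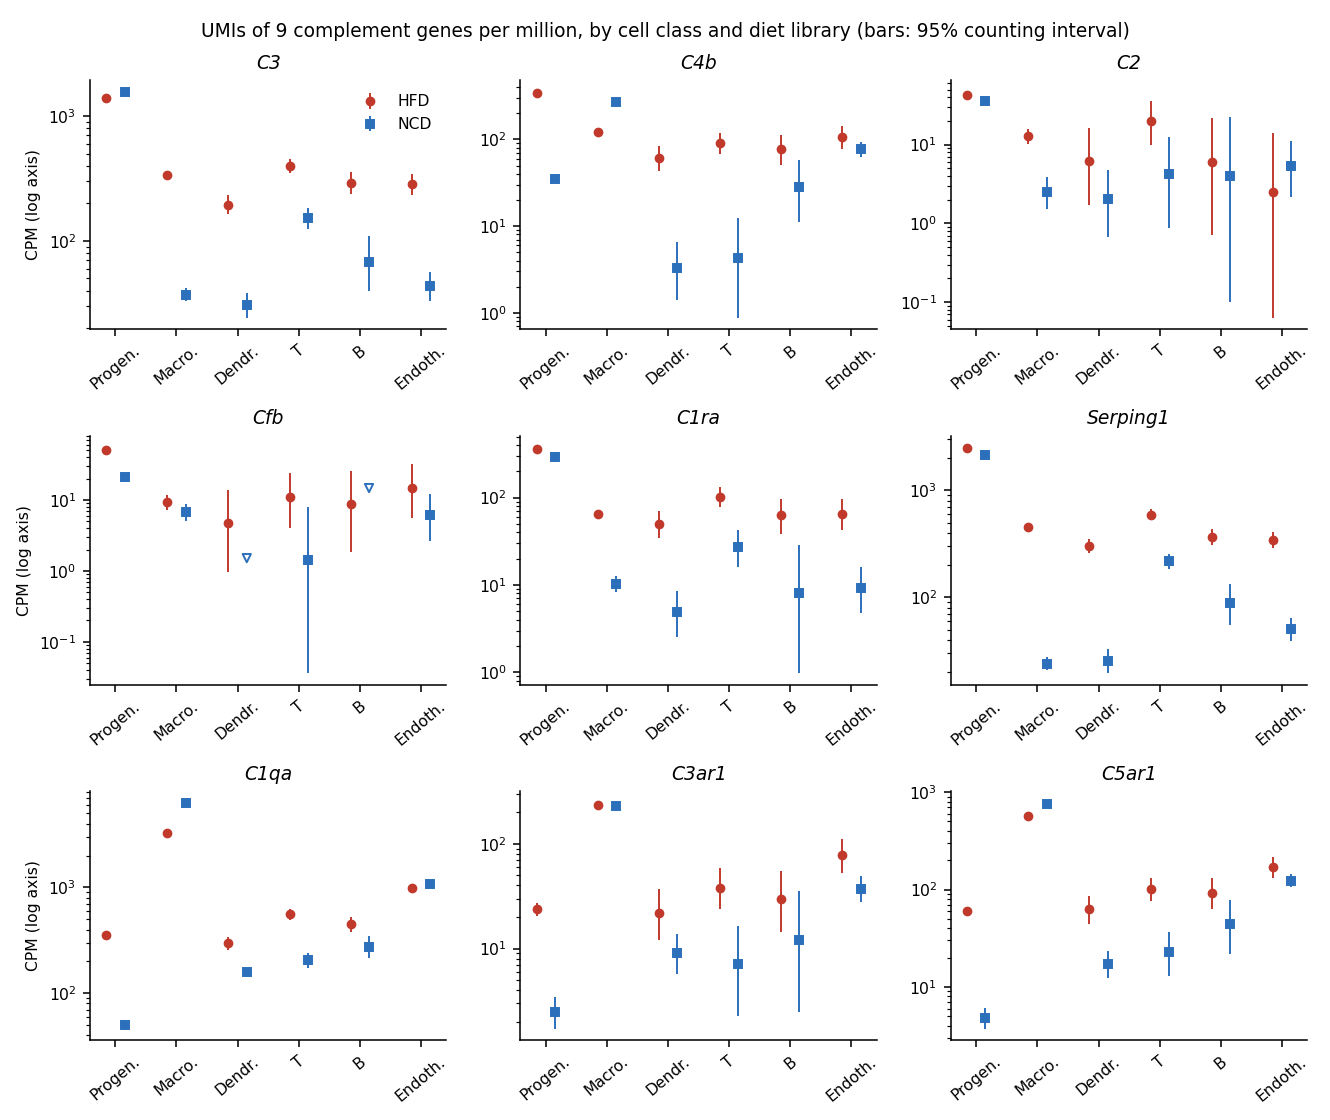
Level (CPM, log axis, 1 panel per gene) of the 9 complement genes in the 6 cell classes with at least 50 cells in each library, HFD circles left of NCD squares; bars are 95% counting intervals, and open triangles give the upper bound where no UMI was found. C4b is highest in progenitors in HFD (343 CPM) and in macrophages in NCD (269 CPM), while each other gene keeps its highest class in both libraries.

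C4b (ENSMUSG00000073418, chromosome 17, 34728380 to 34743882, minus strand, GRCm38), which encodes a component that C1s cuts, had its highest level in a different cell class in each library. In HFD it stood at 343 CPM in progenitors (2581 UMIs) and 121 CPM in macrophages (831 UMIs), and in NCD at 34.8 CPM in progenitors (480 UMIs) and 269 CPM in macrophages (2167 UMIs). Progenitors thus held 2.83 times the macrophage level in HFD (interval 2.62 to 3.06), while in NCD macrophages held 7.71 times the progenitor level (6.98 to 8.53). Progenitors gave 68.7% of all C4b UMIs of the kept cells in HFD and 16.9% in NCD. Macrophages gave 22.1% in HFD and 76.1% in NCD.

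The C4b level of HFD progenitors was 9.84 times that of NCD progenitors (8.93 to 10.9). Among clusters with at least 50 cells, the 7 of HFD progenitors ranged from 151 to 897 CPM. The 10 of NCD progenitors ranged from 6.47 to 72.7 CPM. Clusters are parts of 1 library per diet and not replicates. The share of all genes whose clusters lie apart in this way was not counted. All 7 HFD clusters also lay above every NCD cluster for C5ar1, which was at 0 CPM in progenitors after subtraction. In 2 HFD clusters with macrophage markers at 5.54% and 4.89% of library level (268 and 56 cells), C4b stood at 435 and 194 CPM. Thinned to 1400 UMIs per cell, 33.5% of HFD progenitors (31.8% to 35.2%) and 4.82% of NCD progenitors (4.07% to 5.66%) held a C4b UMI. Without thinning the shares were 46.0% and 10.3%, at median depths of 1995 and 4523 UMIs. Other classes were higher in HFD too. Dendritic cells stood at 61.1 CPM in HFD and 3.28 CPM in NCD (8 UMIs), a ratio of 18.6. T cells stood at 91.0 CPM in HFD and 4.25 CPM in NCD (3 UMIs), a ratio of 21.4. The ratio was 2.76 in B cells and 1.38 in endothelial cells, which had 77.6 CPM in NCD. After subtraction HFD dendritic cells were left with 10.3 CPM and HFD T cells with 0 CPM.

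In macrophages the C4b ratio of HFD over NCD was 0.451 (0.416 to 0.489), a log2 ratio of -1.15, and the log2 ratio after subtraction was -1.79 (79.6 CPM in HFD and 274 CPM in NCD). The level in HFD macrophages was 57.0% of the library level, above the 36.4% reached by the highest progenitor marker there. Within NCD macrophages C4b varied 17.1-fold between clusters. It was highest, at 521 CPM, in the cluster named resident (552 cells, with Timd4 and Cd209d among its leading genes). States were named against the other macrophage clusters of the same library, so resident sets of the libraries may differ. The other NCD macrophages stood at 175 CPM. They include clusters of 197, 515 and 301 cells at 454, 252 and 188 CPM. Each of these had the resident markers Lyve1 and Cd209f among its leading genes over all clusters. Within HFD macrophages, the 123 cells with resident markers had 417 CPM (108 UMIs), the 921 with markers of lipid-associated macrophages had 57.8 CPM, and the remaining 1214 had 162 CPM. Progenitor markers stood at 58.0%, 15.6% and 45.6% of library level in these 3 sets. One resident-marker cluster of 62 HFD cells, with progenitor markers at 19.0%, had 447 CPM of C4b.

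**Figure D2:**
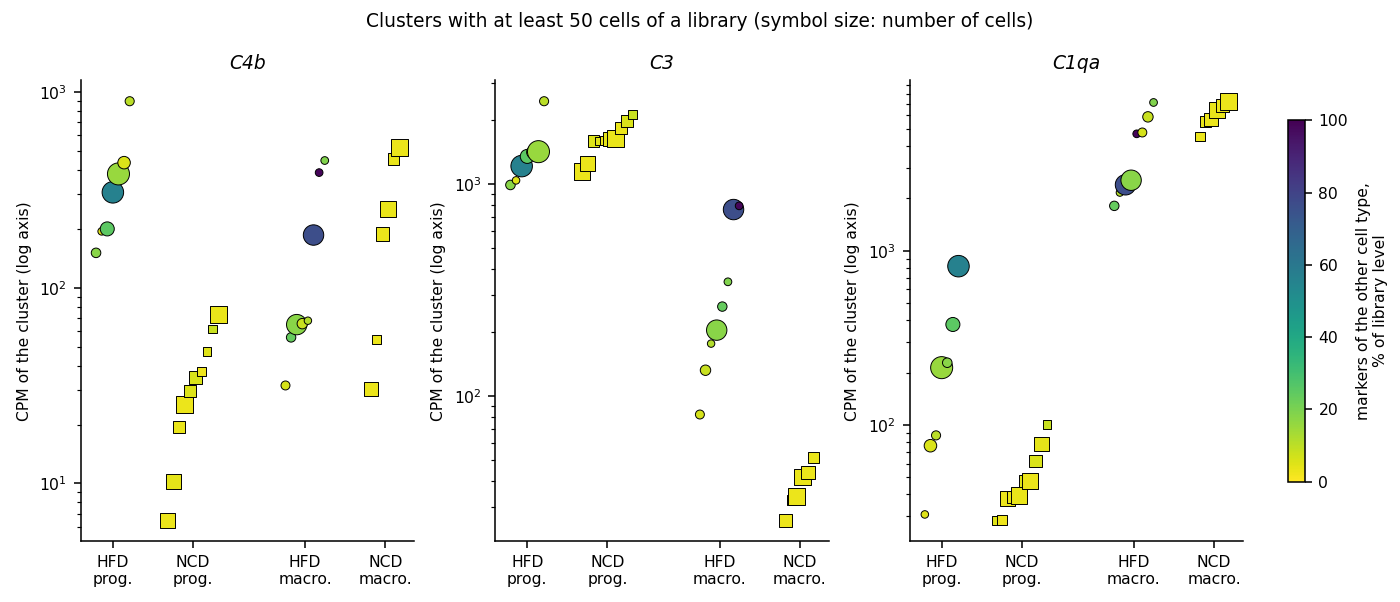
Level of C4b, C3 and C1qa (CPM, log axis) in each progenitor or macrophage cluster with at least 50 cells of a library, HFD circles left of NCD squares; size gives the number of cells and colour the level of the other cell type's markers as a percentage of the library level. C4b clusters range from 151 to 897 CPM in HFD progenitors and from 6.47 to 72.7 CPM in NCD progenitors. C1qa in HFD progenitors is highest in the cluster with the highest level of macrophage markers (816 CPM).

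C4b shares sequence with its neighbour C4a, which was not in the gene table. In GENCODE vM21, 38.1% of the 50-base windows in the last 500 bases of the longest C4b transcript also occur in C4a transcripts, so C4b counts may lack reads from the shared stretches or hold reads from C4a.

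The other 5 stromal genes kept progenitors above macrophages in both libraries. Genes in progenitors as a whole sat slightly lower in HFD than in NCD: the median log2 ratio of 3007 genes with at least 50 CPM was -0.16, and in macrophages it was 0.04. Relative to that median, the log2 ratios in progenitors were 3.46 for C4b, 1.41 for Cfb, 0.47 for C1ra, 0.39 for Serping1, 0.38 for C2 and 0.01 for C3. On the plain CPM scale, 2 of the 6 stromal genes (C4b and Cfb) were at least 2-fold higher in HFD progenitors and 0 were 2-fold lower. Among all 8099 genes with at least 10 CPM in either library, 5.2% were 2-fold higher and 4.62% were 2-fold lower. The median log2 ratio of the 6 was 0.28, against -0.21 over all genes tested.

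C3, the protein on which all routes converge (ENSMUSG00000024164, chromosome 17, 57203970 to 57228136, minus strand), had 1399 CPM in HFD progenitors and 1551 CPM in NCD progenitors. The ratio was 0.902 (0.881 to 0.923) on the CPM scale, and the sign of its logarithm turned to 0.01 when ratios were centred on the median gene. C3 was seen in 76.6% of HFD and 81.2% of NCD progenitors after thinning. In macrophages it stood at 336 CPM in HFD and 37.2 CPM in NCD. The HFD value was 41.5% of the library level, above the 27.2% to 36.4% of the progenitor markers. Between HFD macrophage clusters C3 ranged from 82.0 to 790 CPM, and the cluster at 790 CPM had progenitor markers at 98.5% of library level. After subtraction C3 stood at 121 CPM in HFD macrophages and 13.4 CPM in NCD macrophages. With called doublets kept it stood at 304 CPM in HFD macrophages and 144 CPM in NCD macrophages, a log2 ratio of 1.08 against 3.17 without them.

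Serping1, the inhibitor of C1r and C1s (ENSMUSG00000023224, chromosome 2, 84765387 to 84775444, minus strand), had 2498 CPM in HFD progenitors and 2120 CPM in NCD progenitors, a ratio of 1.18 (1.16 to 1.20). After thinning it was seen in 93.9% of HFD progenitors and 89.1% of NCD progenitors. In macrophages it had 454 CPM in HFD and 24.05 CPM in NCD, which is 33.7% and 2.28% of the library levels. Both lie within or just below the range of the 8 progenitor markers, and subtraction left 49.1 CPM in HFD macrophages and 0 CPM in NCD macrophages. With called doublets kept the levels were 424 CPM in HFD macrophages and 149 CPM in NCD macrophages, a log2 ratio of 1.51 against 4.24 without them.

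C1ra, the protease that activates C1s (ENSMUSG00000055172, chromosome 6, 124512405 to 124523443, plus strand), had 364 CPM in HFD progenitors and 292 CPM in NCD progenitors, a ratio of 1.25 (1.19 to 1.31). It had 64.3 CPM in HFD macrophages and 10.3 CPM in NCD macrophages, and subtraction left 3.56 CPM and 5.73 CPM. Its paralogue C1rb held 24 UMIs in the HFD library and 43 UMIs in the NCD library. Of the 50-base windows in the last 500 bases of C1ra, 19.1% also occur in C1rb transcripts, so its counts are uncertain to that extent.

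Cfb, the protease of the alternative C3 convertase (ENSMUSG00000090231, chromosome 17, 34856374 to 34862518, minus strand), had 50.4 CPM in HFD progenitors (379 UMIs) and 21.1 CPM in NCD progenitors (290 UMIs), a ratio of 2.39 (2.05 to 2.80). Its 7 HFD progenitor clusters ranged from 20.4 to 82.0 CPM and its 10 NCD clusters from 7.47 to 38.7 CPM. In macrophages it stood at 9.33 CPM in HFD and 6.69 CPM in NCD, under the 10 CPM used for counting, and it was the only member under that limit in macrophages. The log2 ratio there was 0.48 and turned to -0.17 with a stricter cell filter, -0.37 in clusters with little free RNA and -3.88 after subtraction, which left 0.329 CPM in HFD and 6.43 CPM in NCD. Subtraction gave 57.2 CPM in HFD progenitors and 21.3 CPM in NCD progenitors.

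C2, which C1s cuts to complete the classical convertase (ENSMUSG00000024371, chromosome 17, 34862604 to 34898265, minus strand), had 42.3 CPM in HFD progenitors and 36.1 CPM in NCD progenitors, a ratio of 1.17 (1.01 to 1.35). In macrophages it stood at 12.8 CPM in HFD and 2.48 CPM in NCD, and subtraction left 6.52 CPM in HFD and 1.66 CPM in NCD. Its progenitor clusters overlapped between the libraries, at 6.70 to 76.9 CPM in HFD and 3.97 to 109 CPM in NCD. C2 and Cfb lie next to each other, and a read-through gene, Gm20547, covers 79.5% of the exon bases of Cfb and 42.8% of those of C2. Gm20547 held 0 UMIs in both libraries. How reads in the shared exons were treated is not given in the sources used here, so the counts of C2 and Cfb are uncertain.

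Progenitors with the Dpp4 state, a set of markers of interstitial progenitors that includes Dpp4 and Pi16, held less of most stromal members than the other progenitors. C4b stood at 176 CPM in the 458 Dpp4-state cells and 378 CPM in the other 2538 cells of the HFD library. In the NCD library it stood at 14.4 CPM in 1098 Dpp4-state cells and 46.7 CPM in the other 1827 cells. C2 had 25.4 and 45.8 CPM in these 2 sets in HFD, and 7.71 and 52.5 CPM in NCD, where the gap was 6.81-fold (4.90 to 9.70). Serping1 had 1935 and 2616 CPM in HFD, and 1533 and 2460 CPM in NCD. Cfb had 31.5 and 54.3 CPM in HFD, and 10.5 and 27.2 CPM in NCD. C1ra had 335 and 370 CPM in HFD, where the interval of the ratio (0.815 to 1.00) reached 1, and 221 and 333 CPM in NCD. C3 had 1247 and 1431 CPM in HFD, and 1556 and 1549 CPM in NCD, where the interval of the ratio (0.977 to 1.03) included 1.

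More of the 6 stromal genes were seen per cell in HFD, and how far single genes account for this was not tested. After thinning, C4b was seen in 33.5% of HFD and 4.82% of NCD progenitors, and Cfb in 6.78% and 2.84%. C2 was seen in 5.81% and 4.44%, C1ra in 39.3% and 32.4%, Serping1 in 93.9% and 89.1%, and C3 in 76.6% and 81.2%. At 1400 UMIs per cell, 51.5% of HFD progenitors and 30.8% of NCD progenitors held UMIs of at least 3 of the 6 stromal genes, and 16.7% and 4.41% held at least 4. Among HFD progenitors, C4b was seen in 37.1% of cells with a C3 UMI (35.1% to 39.1%) and in 21.7% of cells without one (18.7% to 24.96%). Among NCD progenitors the shares were 5.26% (4.40% to 6.24%) and 2.91% (1.67% to 4.68%). Among other pairs, C1ra was seen in 40.9% of HFD progenitors with a C3 UMI and 34.1% of those without one. In NCD progenitors C2 was seen in 4.21% of cells with a C3 UMI and 5.45% of those without one, with overlapping intervals. The part of cluster make-up and free RNA in these shares was not tested. In macrophages, 11.5% of HFD cells and 0.191% of NCD cells held at least 3 of the 6. Serping1, C1ra and Cfb stood in HFD macrophages at 33.7%, 32.4% and 32.0% of library level, within the range of the progenitor markers there. C3, C2 and C4b stood above that range.

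The 3 myeloid genes were highest in macrophages in both libraries. C1qa, a chain of the recognition protein C1q (ENSMUSG00000036887, chromosome 4, 136895917 to 136898803, minus strand), had 3280 CPM in HFD macrophages and 6250 CPM in NCD macrophages, a ratio of 0.525 (0.517 to 0.533). After subtraction the levels were 4065 CPM in HFD and 6393 CPM in NCD, a log2 ratio of -0.65 against -0.93 before it. The neighbouring genes for the other C1q chains were lower too, C1qb at 4380 CPM in HFD and 6084 CPM in NCD and C1qc at 2810 CPM in HFD and 4868 CPM in NCD. C1qa clusters ranged from 1811 to 7106 CPM in HFD and from 4535 to 7224 CPM in NCD. The highest cluster of each library carried resident markers. A C1qa UMI was seen in 86.4% of HFD macrophages and 98.9% of NCD macrophages after thinning.

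C5ar1, the receptor for C5a (ENSMUSG00000049130, chromosome 7, 16246743 to 16259540, minus strand), had 562 CPM in HFD macrophages and 758 CPM in NCD macrophages, a ratio of 0.741 (0.712 to 0.772). Subtraction brought the levels to 694 CPM in HFD and 775 CPM in NCD. C3ar1, the receptor for C3a (ENSMUSG00000040552, chromosome 6, 122847138 to 122856161, minus strand), had 234 CPM in HFD macrophages and 229 CPM in NCD macrophages, a ratio of 1.02 (0.956 to 1.09), with a log2 value of 0.03. Over the alternative settings that value ran from -0.13, as a mean over cells, to 0.31 after subtraction (291 CPM in HFD and 234 CPM in NCD), and it was below 0 in 3 of 12 settings. Its HFD clusters spread from 108 to 417 CPM and its NCD clusters from 190 to 260 CPM. The highest HFD cluster carried lipid-associated markers (106 cells), and the 123 HFD cells with resident markers were at 108 CPM. None of the 3 myeloid genes was 2-fold apart in macrophages. Among 7488 genes tested there, 10.3% were 2-fold higher in HFD and 10.5% were 2-fold lower.

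In progenitors the myeloid genes were far higher in the HFD library, with C1qa at 358 CPM in HFD and 49.6 CPM in NCD. C5ar1 had 60.1 CPM in HFD progenitors and 4.79 CPM in NCD progenitors, and C3ar1 had 23.7 CPM in HFD and 2.47 CPM in NCD. In HFD these values were 23.5%, 22.5% and 21.97% of the library levels, close to the 24.5% median of the 8 macrophage markers. After subtraction C1qa and C5ar1 were at 0 CPM in progenitors of both libraries, and C3ar1 was at 0 CPM in HFD and 0.108 CPM in NCD. Negative results were set to 0, so a value of 0 CPM here is not a measured absence. Between HFD progenitor clusters, C1qa stood at 30.6 CPM where macrophage markers stood at 4.89%, and at 816 CPM where they stood at 56.3%. C1qa is itself highest in macrophages, and the source of its UMIs in progenitors was not tested.

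**Figure D3:**
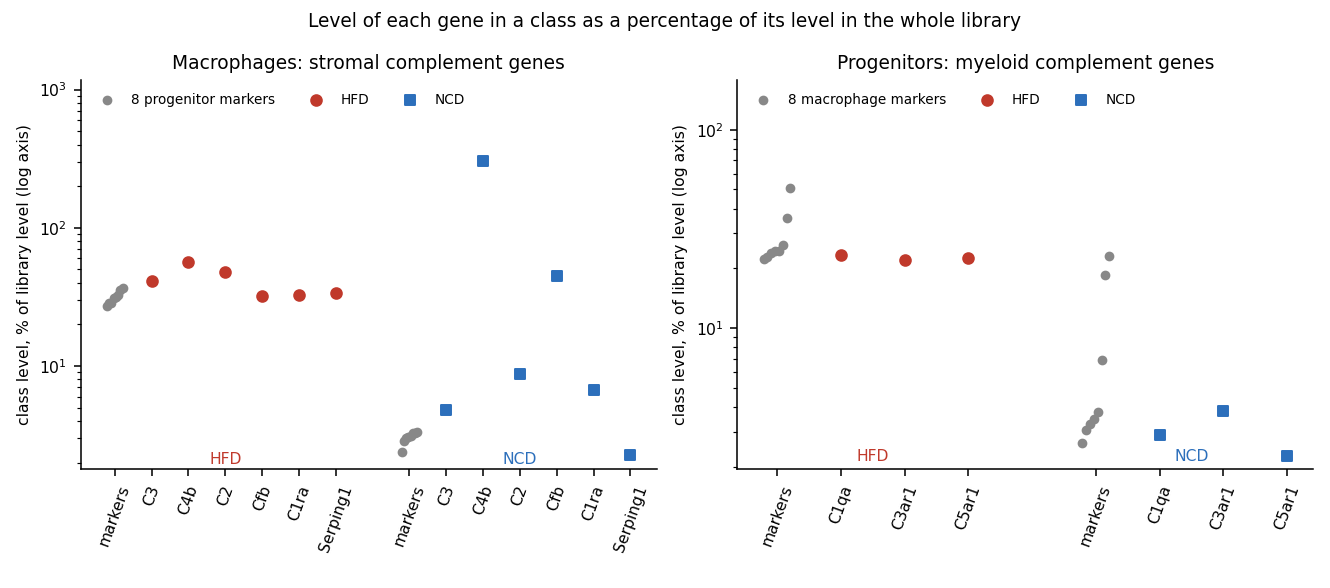
Level of each gene in a class as a percentage of its level in the whole library (log axis): stromal genes in macrophages on the left and myeloid genes in progenitors on the right, HFD circles left of NCD squares, with the 8 markers of the other cell type in grey. C4b stands at 57.0% in HFD macrophages and 305% in NCD macrophages, while C1qa in progenitors stays near the markers in both libraries.

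In dendritic, T, B and endothelial cells no member reached its level in the higher of progenitors and macrophages. In T cells C3 stood at 400 CPM in HFD and 151 CPM in NCD, which is 49.4% and 19.4% of library level, beside 48.1% and 20.9% for the progenitor markers. Endothelial cells had C1qa at 978 CPM in HFD and 1081 CPM in NCD, or 64.1% and 63.1% of library level. Macrophage markers in those endothelial cells stood at medians of 73.9% in HFD and 69.3% in NCD, and their part in the C1qa value was not tested. Mesothelial cells, the lining of the fat pad, were named in clusters of 3 HFD and 49 NCD cells, too few for a comparison of diets. The 49 NCD cells had C3 at 2953 CPM, C2 at 879 CPM (782 to 985), Cfb at 306 CPM (250 to 371), C1ra at 588 CPM and C4b at 35.6 CPM. NCD progenitors had C2 at 36.1 CPM and Cfb at 21.1 CPM. A cluster of 48 HFD and 7 NCD cells shared mesothelial markers but was led by Crisp1, a gene of the epididymal lining, with Slpi, Akr1b7 and Spink8 next, and stayed unnamed. It had C2 at 222 CPM in HFD and 620 CPM in NCD.

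Over the 12 sums of the 6 classes in the 2 libraries, the genes most like each member were ranked by Pearson's r of log2(CPM + 10) among 4727 genes. The sums share 2 libraries and their free RNA, so r is a description. C3 lay closest to Serping1, Col6a1 and C1s1 (r = 0.99 each), Serping1 to C3, Cygb and Aebp1 (0.99 each), and C1ra to Pla1a and Htra3 (0.99 each). C2 lay closest to Gpc6, Vasn and Epdr1 (0.96, 0.96 and 0.95), and Cfb to Arf4, Runx1t1 and Efemp2 (0.95, 0.94 and 0.93). C4b had no partner as close, with Apoe at 0.86, Rcn3 at 0.83 and Ly96 at 0.83. C1qa lay closest to C1qc (1.00), C1qb (0.99) and C5ar1 (0.99), C3ar1 to C5ar1, Lgmn and Fcgr1 (0.98, 0.97 and 0.97), and C5ar1 to C1qa, C3ar1 and C1qc (0.99, 0.98 and 0.98).

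The wider pathway was read from a list of 56 complement genes, of which 55 were in the gene table. In progenitors 22 reached 10 CPM in either library, 10 were at least 2-fold higher in HFD and 1 was 2-fold lower. Over all 8099 genes tested, 5.2% were 2-fold higher and 4.62% were 2-fold lower. The median log2 ratio of the listed genes was 0.47, against -0.21 over all genes tested. The 10 include the 3 C1q chains and the receptors, which in HFD progenitors stood near the macrophage markers as a share of library level, and after subtraction 2 genes of the list were 2-fold higher. In macrophages 25 reached 10 CPM, 9 were 2-fold higher and 4 were 2-fold lower, with a median of -0.02 against -0.07. Over all 7488 genes tested there, 10.3% were 2-fold higher and 10.5% were 2-fold lower. After subtraction 4 listed genes were 2-fold higher in macrophages. No share over all genes is given for the counts after subtraction.

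Those lower in HFD macrophages included C4b, Fcna and Cfp. Fcna, a ficolin that can start the lectin route in mice, had 81.5 CPM in HFD macrophages and 570 CPM in NCD macrophages (ratio 0.143, 0.131 to 0.156). Cfp encodes properdin, which stabilises the alternative convertase, and had 250 CPM in HFD macrophages and 825 CPM in NCD macrophages (ratio 0.304, 0.288 to 0.320). Among receptors, the integrin gene Itgax had 50.8 CPM in HFD macrophages and 5.95 CPM in NCD macrophages. Its partner chain Itgb2 had 182 CPM in HFD and 115 CPM in NCD, Itgam had 60.7 CPM in HFD and 113 CPM in NCD, and Cd93 had 88.2 CPM in HFD and 116 CPM in NCD.

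In progenitors the membrane regulator Cd55, which dissociates C3 convertases, had 183 CPM in HFD and 356 CPM in NCD (ratio 0.515, 0.485 to 0.547). C1s1, the protease partner of C1ra, had 532 CPM in HFD and 530 CPM in NCD. Vtn, a soluble inhibitor of the terminal complex, had 91.6 CPM in HFD and 114 CPM in NCD, Colec12 had 67.1 CPM in HFD and 83.0 CPM in NCD, and Cr1l had 78.3 CPM in HFD and 89.4 CPM in NCD. In macrophages Cr1l had 59.2 CPM in HFD and 60.0 CPM in NCD, and C1s1 had 91.4 CPM in HFD and 8.55 CPM in NCD, at 31.5% and 3.16% of the library levels. Masp1, Masp2, Mbl1, Mbl2, Fcnb, C8a, C8b and Cpn2 had no UMI in either library, which allows up to 0.161 CPM in HFD and 0.0887 CPM in NCD.

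**Figure D4:**
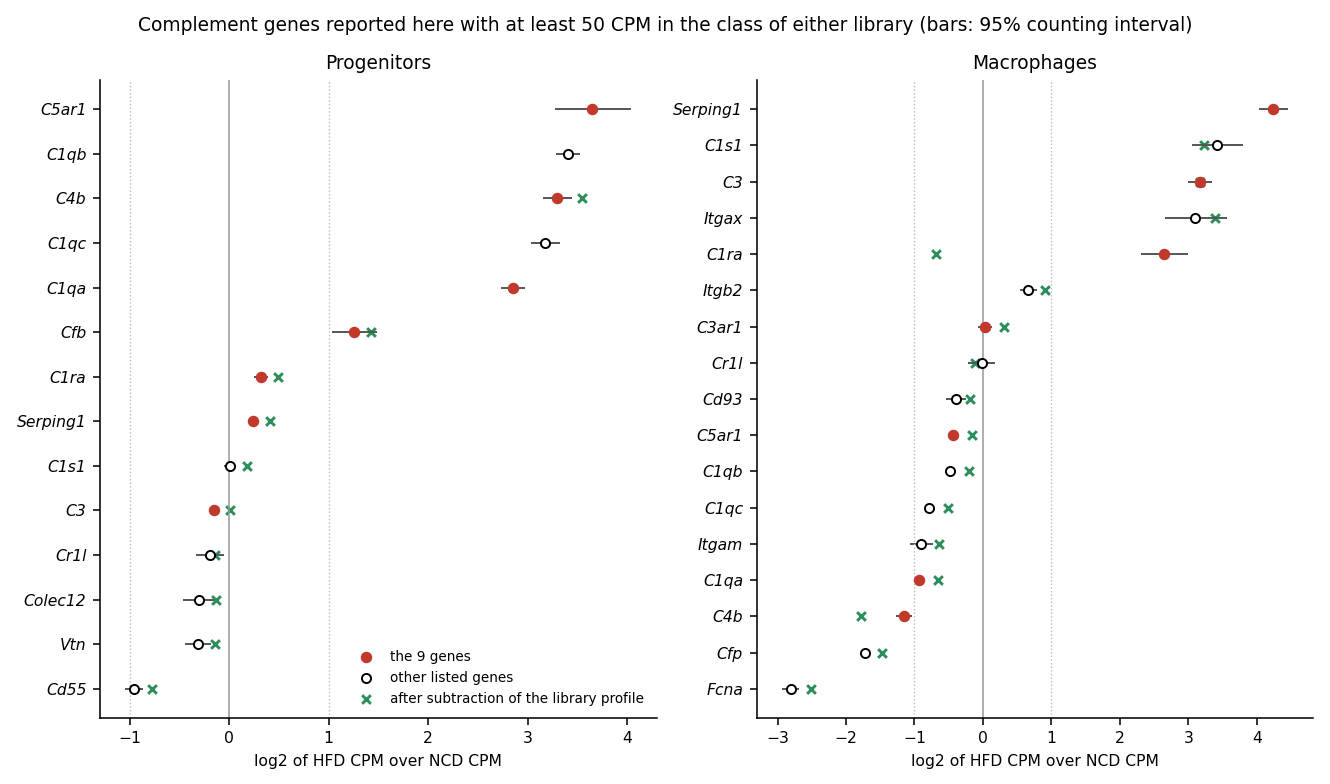
Log2 of the HFD level divided by the NCD level for the complement genes reported here with at least 50 CPM in progenitors (left) or macrophages (right) of either library, with 95% counting intervals; filled circles are members, open circles other listed genes and crosses the ratio after subtraction of the library profile where both values stay above 0. C4b lies at 3.30 in progenitors and -1.15 in macrophages, and the cross for C1ra in macrophages lies at -0.69, on the other side of 0 from its circle.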

How the data were processed

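Single-cell data were used as deposited: the authors' matrices hold whole-number counts of UMIs per gene and cell barcode. Cell Ranger, Seurat and mm10 are named in the submitters' processing notes, and their versions, settings and cell filters are not given in the sources used here. Members and gene lists were chosen with earlier results of these data known.

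Barcodes with at least 500 genes and 1000 UMIs and at most 20% mitochondrial UMIs were kept. Scrublet (scikit-image 0.26.0 for its threshold) called doublets. Its own threshold called none in the HFD library, so the top 5% were removed there, 342 barcodes, against 195 in the NCD library. This left 6444 HFD and 7149 NCD cells. Cells were clustered in Scanpy 1.11.5 on 2000 variable genes, leaving out all complement genes, in 2 rounds that gave 24 and then 76 clusters. A cluster was named from marker lists where at least 3 markers were 1.5-fold higher and no other class had more markers among its top 10 genes. Ties were named too, as in a progenitor cluster of 520 NCD cells with 0 markers of any class among those 10. After the clusters were seen, markers of a state were counted for its class, and Crisp1, Defb42 and Spink8 were counted as epididymal epithelial markers.

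UMIs were summed per class and library. Exact Poisson intervals for levels, exact conditional binomial intervals for ratios and Clopper-Pearson intervals for shares (95%) cover counting error only. Shares of cells were taken after each cell was thinned to 1400 UMIs, which left out no kept cell. Free RNA was estimated from 8 markers of the other cell type and the library profile was subtracted in that proportion, with negative results set to 0. A gene was counted as higher or lower past 2-fold among genes with at least 10 CPM in either library. Named genes were the 9 members, the listed complement genes with at least 50 CPM in progenitors or macrophages, and the 3 genes most like each member. A few genes that these rules name are not reported here. TMM factors came from edgeR 4.0.16. The calculations were tested on simulated data. Positions are from GENCODE vM21 (GRCm38).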

Additional observations from a re-analysis of the deposited data

Results flagged for a closer look

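For 4 of the 9 members the log2 HFD over NCD ratio had opposite signs in progenitors and in macrophages. With 1 library per diet the difference was not tested. The share of all genes with opposite signs in the 2 classes was not counted, so it is not known whether this is unusual. The log2 ratio of C4b was 3.30 in progenitors and -1.15 in macrophages. That of C3 was -0.15 in progenitors and 3.17 in macrophages, and 1.08 in macrophages with called doublets kept. C1qa stood at 2.85 in progenitors and -0.93 in macrophages, and C5ar1 at 3.65 in progenitors and -0.43 in macrophages. Markers of the other cell type were also higher in HFD in both classes, at 24.5% of library level in HFD progenitors and 3.63% in NCD progenitors, and at 31.2% in HFD macrophages and 3.10% in NCD macrophages. After subtraction C1qa and C5ar1 were at 0 CPM in progenitors of both libraries, C3 in progenitors had a log2 ratio of 0.01, and C4b kept opposite signs, at 385 CPM in HFD and 32.8 CPM in NCD progenitors and 79.6 CPM in HFD and 274 CPM in NCD macrophages.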

How the results depend on the processing

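With 1 library per diet no replicate could be left out. No paired analysis was possible because each diet has 1 library. The median log2 ratio of the 6 stromal genes in progenitors was 0.28, and it was 0.45 with free RNA subtracted, 0.43 when centred on the median gene and 0.42 with TMM factors. The median of the 3 myeloid genes in macrophages was -0.43. It was -0.30 with no cell filter, -0.31 with a stricter filter, -0.26 with doublets kept, -0.36 with clusters built with complement genes, -0.16 with free RNA subtracted, -0.27 in clusters with little free RNA, -0.21 with classes from each cell's marker score, -0.53 after thinning and -0.51 as a mean over cells. The share of all genes past 2-fold is given here only for the values as reported, so counts under other settings stand without one. Listed genes 2-fold higher in HFD progenitors numbered 10, against 2 with free RNA subtracted and 18 with no CPM minimum. Those 2-fold lower numbered 1, against 2 with no cell filter, with complement genes in the clustering, in clusters with little free RNA, after thinning, as a mean over cells or with no CPM minimum, 3 with doublets kept or at 1.5-fold, and 0 with a stricter filter or marker scores. In macrophages 9 were higher, against 4 with free RNA subtracted and 14 with no CPM minimum, and 4 were lower, against 7 with no CPM minimum or at 1.5-fold. C1ra in macrophages turned to a log2 ratio of -0.69 with free RNA subtracted. The cause of these shifts was not tested. Of 225 values of single members under the alternatives, 122 stayed within the counting interval of the value reported and 9 changed sign: 2 for C3 in progenitors (0.01 with free RNA subtracted or centred on the median gene) and, in macrophages, 3 for C3ar1, 3 for Cfb and 1 for C1ra. With doublets kept, log2 ratios in macrophages were 1.08 for C3 (3.17 as reported), 1.51 for Serping1 (4.24), 1.29 for C1ra (2.64) and 1.29 for C2 (2.37). C4b ranged from 2.97 to 3.55 in progenitors and from -1.79 to -0.93 in macrophages, and C1qa from -0.97 to -0.65 in macrophages. Adding unnamed progenitor-like clusters (2997 HFD and 3270 NCD cells) was chosen after seeing the data.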

Other observations

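Cfd, the alternative-route protease known as adipsin, is a gene of adipocytes. It held 2 UMIs in the HFD library and 822 UMIs in the NCD library, a ratio of 0.00442 (0.000534 to 0.0160). Other adipocyte genes were low in both: Adipoq held 4 UMIs in HFD and 123 in NCD, Cidec 28 in HFD and 103 in NCD, and Plin1 16 in HFD and 29 in NCD. On the CPM scale the HFD over NCD ratio was 0.0591 for Adipoq, 0.494 for Cidec and 1.00 for Plin1. The part of adipocyte RNA in the Cfd value was not tested.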
